A study of Mus musculus with 6 samples.

Results

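Fragments of glutamate tRNAs were taken as every listed small RNA whose name begins with tRF-Glu-, which gave 33 of the 2334 small RNAs and 33 of the 498 tRNA-derived small RNAs (tsRNAs) in the tables. By the anticodon in the name, 14 belonged to CTC and 19 to TTC. The rule uses names alone, with no measured value, although it was set with earlier results of these data known. The tissue was the retinal pigment epithelium (RPE), the vascular choroid and the sclera of the eye, from male mice aged 7 to 8 weeks. In the CNV group (laser-induced choroidal neovascularization, growth of new vessels from the choroid) each eye had received 25 burns of a 532 nm laser at 100 mW for 0.1 s with a 50 µm spot, and was removed 7 days later. Control eyes came from mice of the same age that had no laser. No strain, transgene or drug is named in the labels. Each group had 3 libraries, each a pool of 4 eyes, and whether pools came from separate mice is not stated. Each p-value therefore sets the group difference against the spread between pools, not between single mice. Part of that spread may be technical.

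Glutamate tRNA reads the codons GAG and GAA, with the CTC anticodon matching GAG and the TTC anticodon matching GAA. Cells cut tRNAs into short fragments. Cuts in the anticodon loop, made by angiogenin and related nucleases under stress, give the longer products named tiRNA, and cuts elsewhere give those named tRF. Fragments from the front of the glutamate tRNA with anticodon CTC are best known from cells infected with respiratory syncytial virus, where they affect gene silencing. RefSeq (GRCm38.p6) lists 20 nuclear glutamate tRNA genes in the mouse, 12 with CTC and 8 with TTC. Copies of 1 anticodon are near-identical, and no sequence was paired with a serial number here, so reads of sister genes or of nested fragments may be split or shared between rows. No tRF-Glu row had counts equal to those of another row in all 6 libraries.

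The libraries held 5057142 to 12839386 counts, with control 2 the deepest. The RPE, endothelial, photoreceptor, neuron, leukocyte, red cell, muscle and fibroblast miRNA lists (31 miRNAs in all) were detected in every library, with no member at 0. The RPE list (miR-204 and miR-211, both arms) summed to 6838 to 7039 CPM in control and 4571 to 6543 CPM in CNV. The photoreceptor list went from 49378 to 75840 CPM in control to 24755 to 49511 CPM in CNV, the neuron list from 13868 to 21049 to 7828 to 12493 CPM, and the leukocyte list from 463 to 581 to 612 to 910 CPM, with 3 of its 4 members higher and miR-150-5p lower. The fibroblast and smooth muscle list, all 4 members higher, was at 57310 to 72854 and 69058 to 90266 CPM, and the red cell list at 636 to 1551 and 478 to 3093 CPM. The muscle list was at 34815 to 92030 and 58088 to 91972 CPM, and the endothelial list at 35232 to 45051 and 35434 to 42864 CPM. None of these members passed the test. The photoreceptor, neuron and muscle lists lay above the RPE list in every library, so miRNAs of cell types outside the named tissue were present. The part of such shifts in tissue make-up in the tRF-Glu values was not tested, and in pooled tissue fewer cells of a type and less of an RNA per cell cannot be told apart.

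Every tRF-Glu row had reads in every library, from 3 counts for the rarest row to 11888 for the most abundant. Levels are given as CPM, counts relative to the library total scaled by trimmed mean of M-values (TMM) factors. After glycine, glutamate was the amino acid whose fragments were most abundant. The tRF-Glu rows summed to 4367, 3908 and 4591 CPM in control 1 to 3 and to 5714, 6980 and 4670 CPM in CNV 1 to 3. The CNV libraries all lay above the controls, with CNV 3 only just above control 3. The mean was 1.35-fold higher in CNV (4289 ± 348 against 5788 ± 1157 CPM, SD, n = 3). The groups overlapped when library totals were the only scaling, where control 1 was at 4846 CPM and CNV 3 at 4803 CPM.

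Among tsRNA counts alone the order was the opposite. The tRF-Glu rows made up 7.48%, 8.86% and 8.72% of tsRNA counts in control 1 to 3 and 5.73%, 6.22% and 7.42% in CNV 1 to 3. All CNV libraries lay below all controls, and control 1 and CNV 3 were close. The glycine fragments took the larger place. The tRF-Gly rows summed to 37951 ± 6814 CPM in control and 75181 ± 23190 CPM in CNV. Glutamate fragments were thus higher in CNV in TMM-scaled CPM and lower as a share of tsRNA counts. With library totals as the only scaling, the groups overlapped in the level. Valine fragments summed to 970 ± 45.8 and 1188 ± 292 CPM and lysine fragments to 798 ± 227 and 827 ± 91.0 CPM. Because the rule was set with earlier results known, no p is given for sums over the rows, and single rows were tested only within the fit of all small RNAs.

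**Figure D1:**
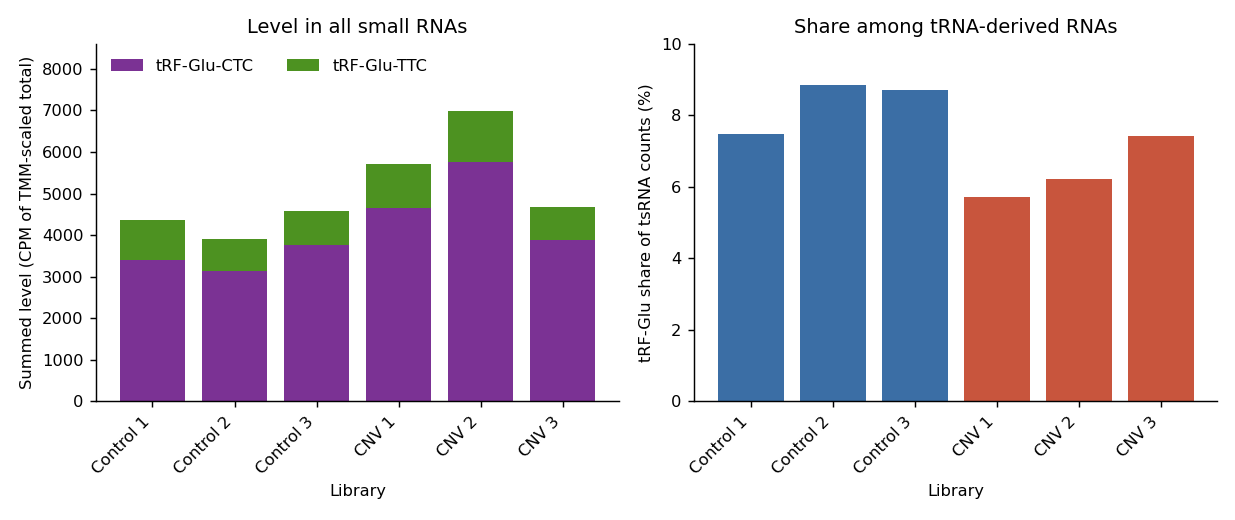
Summed level of the tRF-Glu rows in each library, in CPM of the TMM-scaled total with the CTC and TTC parts stacked (left), and the percentage of tsRNA counts they took (right, blue control and red CNV). The CNV libraries are at 4670 to 6980 CPM against 3908 to 4591 in control, and at 5.73% to 7.42% of tsRNA counts against 7.48% to 8.86%.

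The CTC anticodon supplied most of the counts. Its 14 rows held 78.1%, 80.3% and 81.7% of tRF-Glu counts in control 1 to 3 and 81.5%, 82.6% and 83.1% in CNV 1 to 3 (half-width of the Wilson 95% interval at most 0.510 percentage points, for counting error only). The groups overlapped, with control 3 above CNV 1, and the mean share was 2.37 points higher in CNV (80.0 ± 1.84% against 82.4 ± 0.812%). The difference was 0.485 points without the most abundant row of each anticodon. The CTC rows summed to 3433 ± 308 CPM in control and 4767 ± 945 CPM in CNV, with all CNV libraries above the controls. The TTC rows summed to 856 ± 94.8 and 1021 ± 217 CPM, and there CNV 3 (789 CPM) lay below control 1 (958 CPM) and control 3 (839 CPM). With library totals as the only scaling, CTC still lay apart (3400 to 3783 against 3991 to 5443 CPM). Whether the anticodons responded differently was not tested.

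The anticodons also differed in how their counts were spread. In each library 5 CTC rows held 96.8% to 98.3% of the CTC counts, and the remaining rows were rare. The leading 5 TTC rows held 55.7% to 66.4% of the TTC counts. Expressed as the number of equally abundant rows that would give the same concentration (the inverse of the summed squared shares), CTC counts came from 4.69, 4.53 and 4.50 rows in control 1 to 3 and 4.09, 4.09 and 4.21 in CNV 1 to 3. TTC counts came from 10.3, 8.99 and 9.04 in control and 10.2, 9.74 and 11.0 in CNV. The CTC counts were thus more concentrated in every CNV library than in any control, and the TTC values overlapped.

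**Figure D2:**
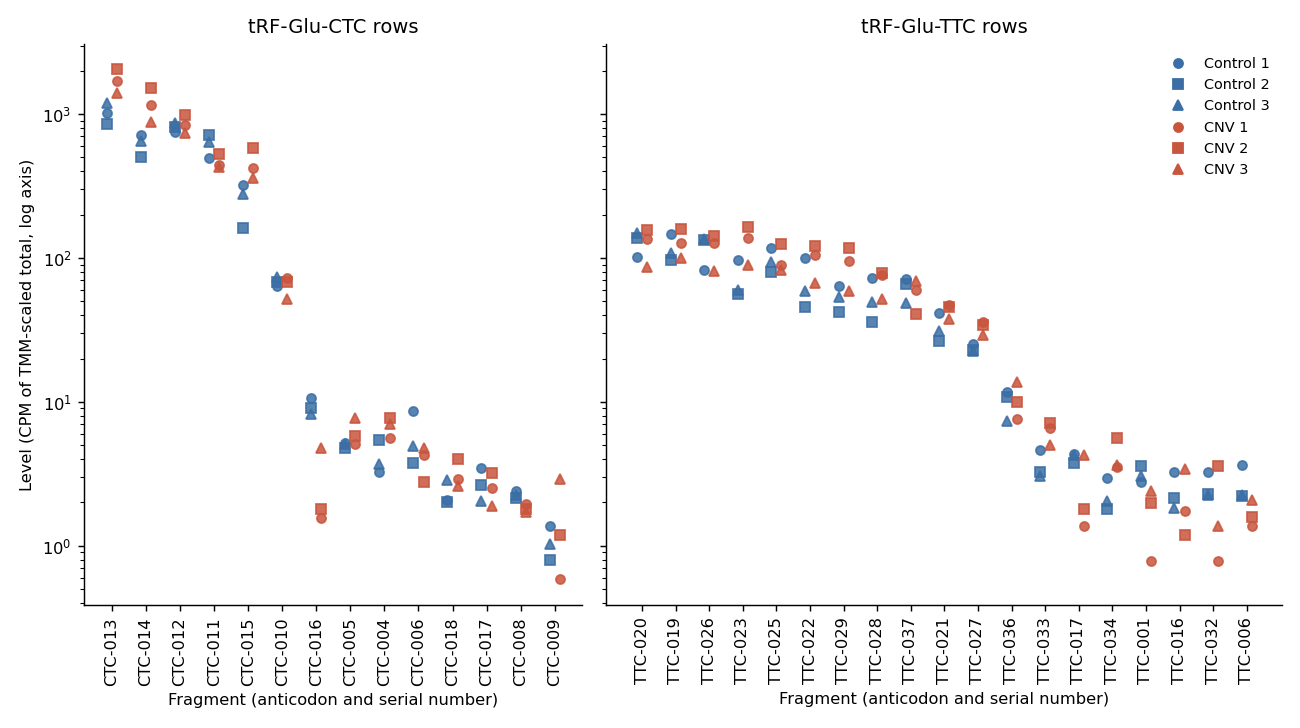
Level of each of the 33 tRF-Glu rows in every library, in CPM on a log axis, ordered by mean level within each anticodon (blue control, red CNV; the symbol gives the replicate). Among CTC rows only CTC-010, at 68.8 ± 5.34 CPM in control, lies between the 5 abundant rows and the rest, and the TTC rows decline more evenly.

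No tRF-Glu row passed the test of CNV against control (edgeR's quasi-likelihood test, Benjamini-Hochberg adjustment over all 997 small RNAs tested, threshold 0.05). The test covered 32 of the 33 rows, since CTC-009 had too few reads, and 3 of the 997 passed (0.301%), all of them miRNAs. The smallest adjusted p among the tRF-Glu rows was 0.127. At an unadjusted p under 0.05 there were 9 rows higher and 1 lower in CNV, where the share over all small RNAs was 10.8% higher and 6.92% lower, and over tsRNAs 13.6% and 4.39%. DESeq2 called 2 rows, CTC-016 lower and CTC-014 higher, where it called 3.81% of all small RNAs (38) and 3.51% of tsRNAs (16), and limma-voom called 0 (11 at an unadjusted p under 0.05). With rare rows left in the fit edgeR called 5 of 33, CTC-013, CTC-014, CTC-015 and TTC-023 higher and CTC-016 lower. That fit called 88 of 2334 small RNAs (3.77%) and 38 of 498 tsRNAs (7.63%). The 10 rows at an unadjusted p under 0.05 came to 13, 4 and 4 without control 1, control 2 and control 3. They came to 7, 5 and 11 without CNV 1, CNV 2 and CNV 3. Leaving out CNV 3 gave 1 call, CTC-016, where 2.33% of all small RNAs and 1.48% of tsRNAs were called.

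The direction was mixed. Of the 32 rows, 18 were higher and 14 lower, with a median log2 fold change of 0.06, against 0.05 over all 997 small RNAs and 0.08 over tsRNAs. Library totals as the only scaling lowered the median of all small RNAs to -0.11, and 14 tRF-Glu rows were then higher and 18 lower. For 7 rows all CNV values lay above all control values and for 4 all lay below (background among all small RNAs 11.4% and 8.93%, among tsRNAs 9.87% and 6.14%). With library totals these counts were 4 and 6 (background 7.32% and 12.8%, among tsRNAs 6.36% and 8.33%). By level, with a boundary of 10 CPM chosen after the values were seen, 13 of the 18 more abundant rows were higher in CNV (median log2 0.26), and 5 of the 14 tested rarer ones (median log2 -0.23). That split was made under TMM only, with no background taken at this boundary. At a minimum mean of 20 CPM the median was 0.36 over 17 tRF-Glu rows, 0.09 over tsRNAs and 0.02 over all small RNAs. Rarer rows have no such comparison. The CTC and TTC rows had medians of 0.07 and 0.06.

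**Figure D3:**
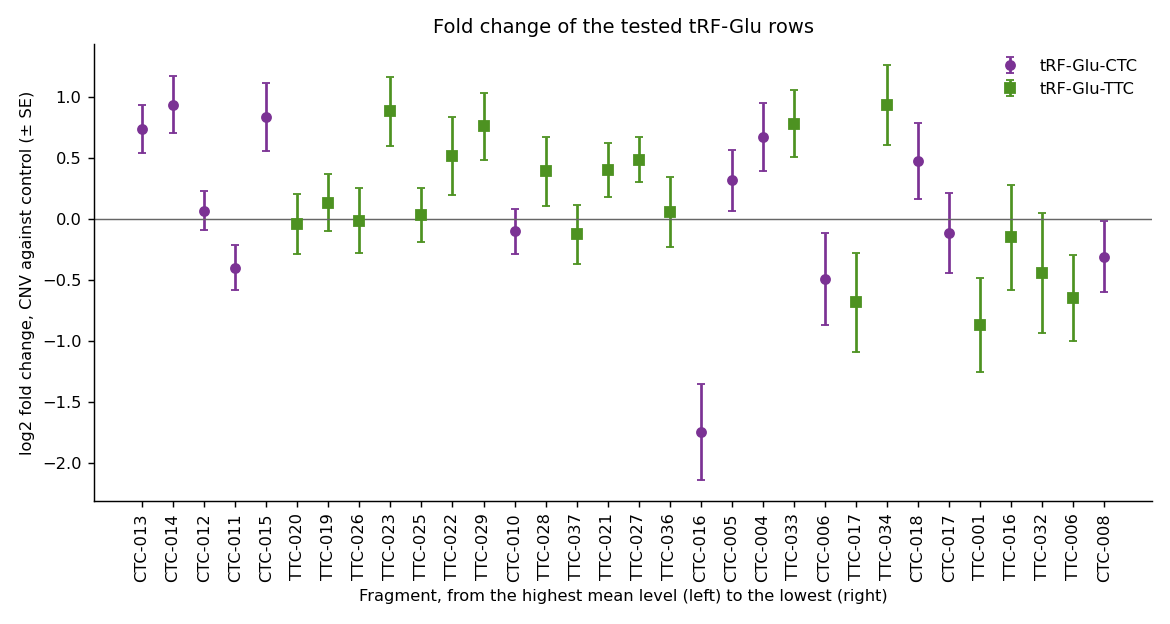
Log2 fold change of the 32 tested tRF-Glu rows, CNV against control, with its standard error (bars), ordered from the most abundant (left) to the rarest (right). Values run from -1.74 for CTC-016 to 0.94 for CTC-014, and no row passed the test.

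The most abundant row was tRF-Glu-CTC-013. It was at 1025, 854 and 1205 CPM in control 1 to 3 and at 1696, 2045 and 1398 CPM in CNV 1 to 3. Every CNV library lay above every control. The fold change was 1.67 (log2 0.74, SE 0.20, unadjusted p = 0.00490, adjusted p = 0.141 in edgeR's quasi-likelihood test).

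The row tRF-Glu-CTC-014 was at 712, 501 and 649 CPM in control and 1159, 1530 and 875 CPM in CNV. The groups lay apart here too, and CNV 3 was again the lowest of the CNV libraries. Its fold change was 1.91 (log2 0.94, SE 0.23, unadjusted p = 0.00312, adjusted p = 0.127), and DESeq2 called it (adjusted p 0.0298). The fifth in abundance, tRF-Glu-CTC-015, followed the same pattern, at 254 ± 83.0 and 454 ± 114 CPM (log2 0.84, SE 0.28, adjusted p = 0.202).

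The neighbours in the serial numbers were little changed or lower. The row tRF-Glu-CTC-012 was at 755, 808 and 871 CPM in control and 837, 981 and 735 CPM in CNV, and the groups overlapped (log2 0.07, SE 0.16, adjusted p = 0.882). The row tRF-Glu-CTC-011 was at 494, 713 and 644 CPM in control and 444, 531 and 429 CPM in CNV. Only CNV 2 lay above the lowest control, and the fold change was 1.32-fold lower (log2 -0.40, SE 0.18, adjusted p = 0.300). CTC-010, the rarest of this series, was at 68.8 ± 5.34 and 64.3 ± 10.7 CPM (log2 -0.10).

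Shares within the CTC counts do not depend on how libraries are scaled, although they sum to the whole and so are not independent of each other. They were described after the levels above had been seen. The share of CTC-011 was 14.5%, 22.7% and 17.2% in control 1 to 3 and 9.54%, 9.21% and 11.1% in CNV 1 to 3. That of CTC-012 was 22.1%, 25.7% and 23.2% in control and 18.0%, 17.0% and 18.9% in CNV. Both lay lower in every CNV library than in any control. So did the small share of CTC-010, at 2.01 ± 0.161% in control and 1.36 ± 0.197% in CNV.

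The share of CTC-013 was 30.1%, 27.2% and 32.1% in control and 36.4%, 35.5% and 36.0% in CNV. That of CTC-014 was 20.9%, 16.0% and 17.3% in control and 24.9%, 26.6% and 22.6% in CNV. Both lay higher in every CNV library. The share of CTC-015 overlapped, at 9.46%, 5.16% and 7.43% in control and 9.10%, 10.1% and 9.22% in CNV. The Wilson 95% intervals of shares within an anticodon had half-widths of at most 1.17 points.

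The order of the rows changed with them. CTC-013 came first in all 6 libraries, while CTC-012 was the runner-up in the 3 controls and CTC-014 in the 3 CNV libraries. The ratio of CTC-014 to CTC-012 counts was 0.944, 0.620 and 0.744 in control 1 to 3 and 1.38, 1.56 and 1.19 in CNV 1 to 3. The ratio of CTC-013 to CTC-011 was 2.07, 1.20 and 1.87 in control and 3.82, 3.85 and 3.26 in CNV. Control 2, the deepest library, had the largest share of CTC-011. Without control 2 the difference in the mean share of CTC-011 went from -8.19 to -5.89 points, and that of CTC-014 from 6.61 to 5.57 points.

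**Figure D4:**
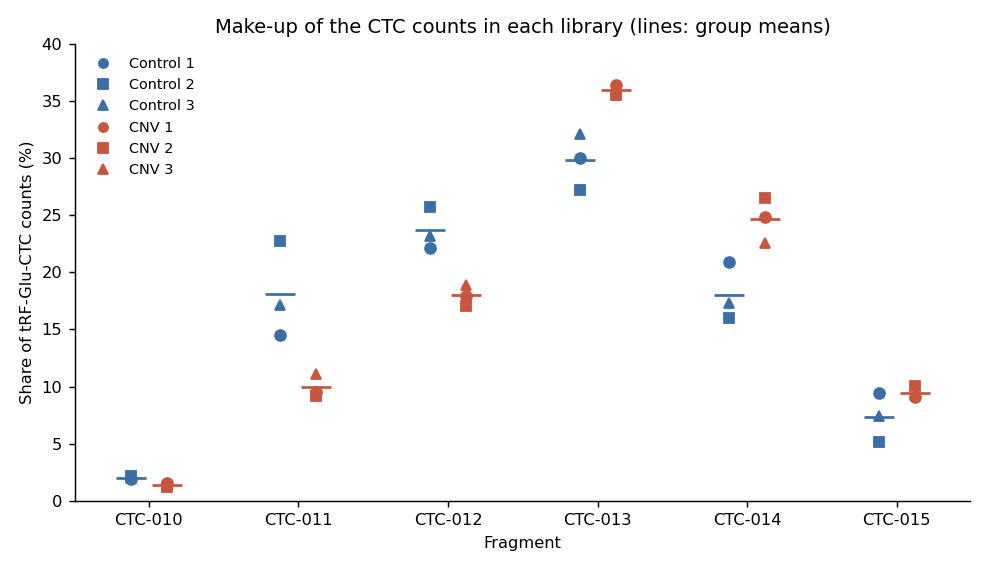
Percentage of all tRF-Glu-CTC counts taken by the rows CTC-010 to CTC-015 in each library (points; lines are group means; blue control, red CNV). CTC-010, CTC-011 and CTC-012 sit lower and CTC-013 and CTC-014 higher in all 3 CNV libraries than in any control, and CTC-015 overlaps.

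Among the TTC rows no single fragment dominated. The row tRF-Glu-TTC-020 was at 102, 137 and 150 CPM in control 1 to 3 and 135, 157 and 86.1 CPM in CNV 1 to 3. The row tRF-Glu-TTC-019 was at 148, 96.1 and 109 CPM in control and 126, 160 and 100 CPM in CNV. The row tRF-Glu-TTC-026 was at 82.8, 133 and 136 CPM in control and 126, 142 and 81.5 CPM in CNV. All of these overlapped, with log2 fold changes of -0.04, 0.13 and -0.01 and adjusted p values of 0.945, 0.830 and 0.983 in edgeR's test. TTC-025 was at 96.9 ± 19.3 and 98.9 ± 22.8 CPM (log2 0.03).

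The row tRF-Glu-TTC-023 was at 96.4, 55.9 and 59.6 CPM in control and 138, 163 and 88.9 CPM in CNV. CNV 3 lay between the controls, so the groups overlapped. Its fold change was 1.84 (log2 0.88, SE 0.28, unadjusted p = 0.0132, adjusted p = 0.189). TTC-029 was at 53.4 ± 11.2 and 90.1 ± 29.0 CPM (log2 0.76, SE 0.27, adjusted p = 0.218). TTC-027 was the only TTC row over 10 CPM whose groups lay apart, at 23.6 ± 1.48 and 33.1 ± 3.43 CPM (log2 0.48, adjusted p = 0.232), and was named after its values were seen. As shares of the TTC counts, TTC-023 took 10.1%, 7.25% and 7.10% in control and 13.0%, 13.4% and 11.3% in CNV, and TTC-029 6.71%, 5.44% and 6.42% in control and 8.96%, 9.58% and 7.49% in CNV. Both shares lay higher in every CNV library.

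The abundant TTC rows formed a pair of parallel series, seen in the values and not set in advance. The counts of TTC-025 were 0.704 to 0.861 of those of TTC-019 over the 6 libraries, and those of TTC-026 were 0.811 to 0.974 of those of TTC-020. The same held for TTC-027 against TTC-021 (0.610 to 0.869), TTC-028 against TTC-022 (0.652 to 0.841) and TTC-029 against TTC-023 (0.665 to 0.904). These ratios varied at most 1.43-fold over the libraries. The ratio of TTC-023 to TTC-020, within a series and picked after the values were seen, varied 2.61-fold. It does not stand for all ratios within a series, since that of TTC-021 to TTC-019 varied by less than 1.43-fold. TTC-023 was at 0.944, 0.409 and 0.398 of TTC-020 in control 1 to 3 and at 1.02, 1.04 and 1.03 in CNV 1 to 3. Control 1 was thus nearer to the CNV libraries than to the other controls. The same ratio in the second series, TTC-029 to TTC-026, was 0.777, 0.315 and 0.395 in control and 0.749, 0.823 and 0.726 in CNV, and there the groups overlapped through control 1.

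**Figure D5:**
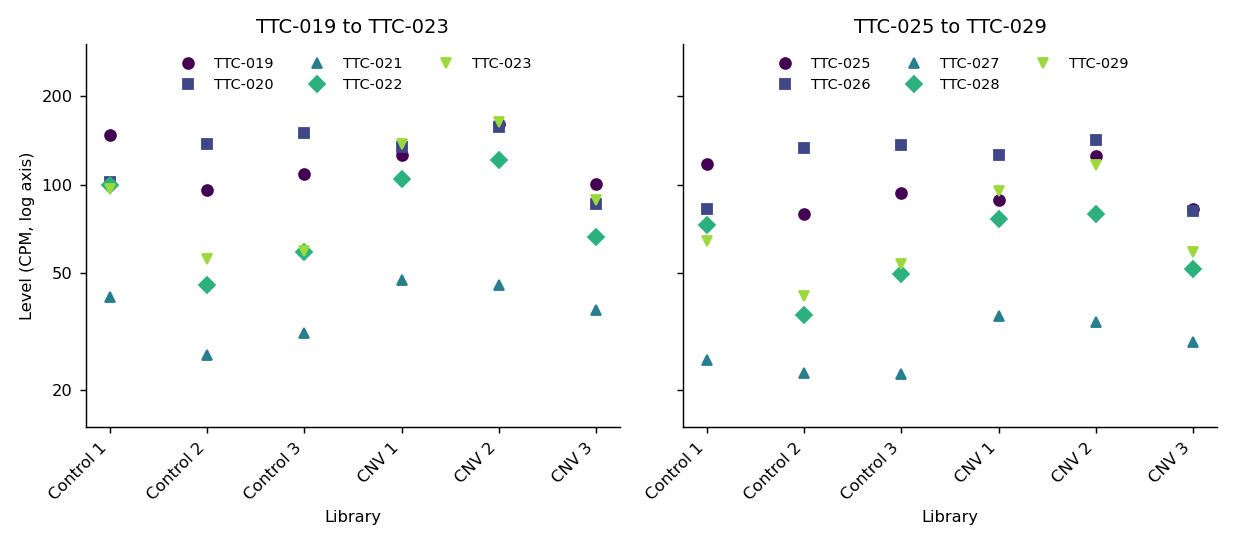
Level of TTC-019 to TTC-023 (left) and of TTC-025 to TTC-029 (right) in each library, in CPM on a log axis. The order of the fragments within a library is similar in both panels, and TTC-023 lies well below TTC-020 in control 2 and control 3 (ratios of 0.409 and 0.398) and level with it in the CNV libraries.

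The rare rows held the largest relative difference. The filter asked for enough reads in 3 libraries only, so a rare row could enter through the group where it was high. The part of this entry rule in the differences was not tested. In control libraries tRF-Glu-CTC-016 stood at 10.7, 9.05 and 8.16 CPM, and in CNV libraries at 1.56, 1.79 and 4.81 CPM, from 62, 126 and 40 counts and 8, 9 and 28 counts. All CNV libraries lay below the controls, CNV 3 the least so. The level was 3.34-fold lower (log2 -1.74, SE 0.39, unadjusted p = 0.00183, adjusted p = 0.127 in edgeR's test; DESeq2 adjusted p 0.00661). Without CNV 3 edgeR called it, at log2 -2.55 with an adjusted p of 0.0335. It was 0.273 ± 0.0498% of the CTC counts in control and 0.0628 ± 0.0530% in CNV.

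Other rare rows differed by less. The row tRF-Glu-TTC-001 was at 2.76, 3.59 and 3.06 CPM in control and 0.778, 1.99 and 2.41 CPM in CNV (log2 -0.87, SE 0.39, adjusted p = 0.280). The row tRF-Glu-TTC-006 was at 3.62, 2.23 and 2.25 CPM in control and 1.36, 1.59 and 2.06 CPM in CNV (log2 -0.65, SE 0.35, adjusted p = 0.389). The groups lay apart for both, with few counts, down to 4 in CNV 1 for TTC-001. TTC-017 and TTC-032, at log2 -0.68 and -0.44, overlapped, as did CTC-006 at -0.49. CTC-008 lay apart by a small step, at 2.27 ± 0.131 and 1.82 ± 0.116 CPM (log2 -0.31, adjusted p = 0.677).

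A few rare rows were higher. The row tRF-Glu-TTC-034 was at 2.93, 1.80 and 2.04 CPM in control and 3.50, 5.57 and 3.61 CPM in CNV (log2 0.94, SE 0.33, adjusted p = 0.212). TTC-033 was at 3.65 ± 0.875 and 6.25 ± 1.13 CPM (log2 0.78, adjusted p = 0.217) and CTC-004 at 4.14 ± 1.16 and 6.82 ± 1.08 CPM (log2 0.67, adjusted p = 0.267). The groups lay apart for each of these under TMM and overlapped with library totals as the only scaling. The remaining rows had log2 fold changes between -0.15 (TTC-016) and 0.51 (TTC-022), and none had an unadjusted p under 0.05.

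The tables also list 4 glutamate fragments of the tiRNA class, the products of a cut in the anticodon loop. All 4 were higher in CNV and none passed the test. Each had an unadjusted p under 0.05 in edgeR's test, where 13.6% of tsRNAs and 10.8% of all small RNAs were higher at that level. The rows need not be independent, since counts of tiRNA-Glu-TTC-003 were 0.704 to 0.871 of those of tiRNA-Glu-TTC-002 over the 6 libraries. The groups overlapped for all 4. The row tiRNA-Glu-CTC-002 was at 400, 291 and 428 CPM in control and 589, 813 and 409 CPM in CNV (log2 0.70, SE 0.26, adjusted p = 0.232). The row tiRNA-Glu-TTC-002 was at 125, 44.7 and 53.7 CPM in control and 235, 349 and 95.4 CPM in CNV (log2 1.61, SE 0.51, adjusted p = 0.185). In both, CNV 3 lay among the controls. The third and the fourth, tiRNA-Glu-TTC-003 and tiRNA-Glu-TTC-004, had log2 fold changes of 1.55 and 1.06. Of the other tRNA fragments, 389 tRF rows were tested, 215 higher and 174 lower, and 31 tiRNA rows, 20 higher and 11 lower. Their median log2 fold changes were 0.07 and 0.29, and 0 passed edgeR's test in either class. Over all 456 tsRNAs tested, 82 had an unadjusted p under 0.05.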

How the data were processed

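Small RNA libraries with inserts of 14 to 40 nt were made from Trizol RNA and sequenced on a NextSeq 500, per the labels' protocols. The authors' deposited tables give a read count for each named miRNA and tsRNA. Per the submitters' processing notes Bowtie was used. Neither its version nor the build, nor the handling of reads with several matches, is given in the sources used here. The deposited CPM column was treated as a score and not tested, since tsRNA and miRNA rows rest on different totals. Each listed tsRNA reached at least 20.0 in it in some library.

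Groups and replicate numbers came from the sample titles. Replicate libraries differed by far more than sampling noise (chi-square per degree of freedom at least 71.6). Counts were filtered with filterByExpr (minimum count 10, minimum total 15) and scaled by TMM. CNV was tested against control with edgeR 4.0.16 in R 4.3.3, with no covariate, over 997 small RNAs. The test was also run on counts simulated from the means and spreads estimated here. Such counts follow the model's own assumptions, and the share of true changes recovered is not given here. DESeq2 1.42.0 and limma 3.58.1 were alternatives.

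The rows named were the 5 most abundant of each anticodon, the 4 with the smallest p in each direction and any called under an alternative. Other rows named were chosen after their values were seen. The members and lists were chosen with earlier results of these data known.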

Additional observations from a re-analysis of the deposited data

How the results depend on the processing

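The count of 0 tRF-Glu calls also held with relative log expression factors, library totals or tsRNA-only scaling, a minimum mean of 20 CPM, limma-voom (11 at an unadjusted p under 0.05) and identical rows kept once. With rare rows left in the fit 5 were called (CTC-013, CTC-014, CTC-015 and TTC-023 higher, CTC-016 lower; 3.77% of all small RNAs), with DESeq2 2 (3.81% of all), and leaving out 1 library gave 0 to 1. The call without CNV 3 was CTC-016. The rows at an unadjusted p under 0.05, 10 in all, were 6 at a minimum mean of 20 CPM. With 1 library left out they were 4 to 13 (13 without control 1, 4 without control 2, 4 without control 3, 7 without CNV 1, 5 without CNV 2, 11 without CNV 3). Why these counts moved was not tested. At a minimum mean of 20 CPM, 17 tRF-Glu rows were left in the fit.

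The replicate numbers were not taken as pairs. Same-numbered libraries had deviations correlated at 0.29, 0.03 and 0.17. Each CNV library correlated best with the control of its own number, CNV 2 only just (0.01 with control 1). Control 2 in turn correlated better with CNV 3 (0.15) than with CNV 2. These values do not settle whether the numbers mark pairs. The fit with the replicate block called 1 tRF-Glu row, CTC-016 (adjusted p 0.0383), and 36 small RNAs in all against 3.

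The log2 ratio of the summed level was 0.43, and 0.28 to 0.57 with 1 library left out. It was -0.37 as a share of tsRNA counts, a denominator in which the glycine fragments lie. The difference in the CTC share was 1.39 to 3.22 points with 1 library left out, and 0.485 points without the most abundant row of each anticodon.

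Of 301 refitted values for 21 named rows, leaving out 4 to which DESeq2 gave no adjusted p, 272 kept direction and side of the threshold, 9 were called in addition and 20 changed sign, all of rows with small changes. With library totals TTC-019, TTC-025 and CTC-012 were at -0.028, -0.12 and -0.079 (log2). TTC-025 was also at -0.0057 with relative log expression factors, -0.0057 with DESeq2, -0.061 with tsRNA-only scaling and -0.059 with rare rows left in, and CTC-012 at -0.025 and -0.014 in the last pair. With 1 library left out, TTC-019 ran from -0.10 to 0.34, TTC-020 from -0.29 to 0.094, TTC-025 from -0.22 to 0.20, TTC-026 from -0.23 to 0.12 and CTC-012 from -0.095 to 0.084. The 15 rows under 10 CPM rest on few counts.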
